A study of Mus musculus with 9 samples.

Results

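Messenger RNA levels of 10 inflammatory and regulatory cytokine genes were examined in mouse peritoneal macrophages after injection of an interferon. The genes were Il6, Tnf, Il1a, Il1b, Il1rn, Il10, Il12a, Il12b, Il23a and Il27, chosen by name, and they are 10 of the 19752 genes with a value on the arrays. Male C57BL/6 mice, 6 weeks old, were injected under the skin with recombinant type I interferon (IFNa, interferon alpha, 10000 U; n = 4 arrays) or type II interferon (IFNg, interferon gamma, 8000 U; n = 2 arrays), and cells were taken 2 h later. Untreated mice, also 6 weeks old, gave 3 arrays. The titles of the untreated arrays carry the tag SPF, and those of the treated arrays do not. The labels describe no mice injected with vehicle, so the effects of the interferon and of the injection cannot be told apart. Cells were sorted in successive rounds of flow cytometry, and the labels give F4/80 and ICAM2 as sorting markers of the treated cells but F4/80 alone for the untreated cells. RNA was hybridised to 9 single-colour Affymetrix arrays. The labels do not say whether each array stands for a separate mouse, so p-values measure the spread between these arrays, which may be partly technical.

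Cytokines of this group carry signals between cells of the innate and adaptive immune system. IL-6, TNF, IL-1α and IL-1β drive fever, vascular activation and the acute-phase response, while IL-10 and the IL-1 receptor antagonist (Il1rn) restrain inflammation. The IL-12 family is built from shared subunits: Il12a with Il12b forms IL-12, Il23a with Il12b forms IL-23, and Il27 with Ebi3 forms IL-27. Genes that answer to type I interferon often carry the interferon-stimulated response element (ISRE), and those that answer to IFN-γ the gamma-activated site (GAS). Many cytokine genes are also switched on through NF-κB, AP-1 and C/EBP factors.

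The sequence just upstream of the start sites shows which short strings of these factors lie beside the genes, and Il6 is printed whole because it was the member whose level changed. RefSeq promoter windows (assembly GRCm38.p6) were matched for 7 of the 10 members, giving 10 windows of 250 bases upstream of a start site. No window was matched for Il10, Il23a or Il27. Each window was searched on both strands for 5 strings. The strings were ISRE (GAAA, 2 free bases, GAAA; in 2.98% of all 32851 RefSeq windows of that length), GAS (TTCNNNGAA, 7.02%), kappaB (GGG, 2 free bases, TTTCC; 1.41%), AP-1 (TGANTCA, 6.75%; it reads the same on both strands) and C/EBP (TTGCNCAA, 2.61%). The Il6 window, on the plus strand at chr5:30012864-30013113, held AP-1 from position -249, C/EBP on the opposite strand from -128 and kappaB from -44 relative to the start site. The capitals mark these 3 matches.
Il6: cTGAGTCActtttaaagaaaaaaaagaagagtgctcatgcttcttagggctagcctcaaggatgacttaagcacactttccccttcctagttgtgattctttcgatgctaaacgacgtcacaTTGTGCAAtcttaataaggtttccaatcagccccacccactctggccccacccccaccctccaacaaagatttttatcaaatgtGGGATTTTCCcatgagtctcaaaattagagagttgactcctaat

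The other matches were in the IL-1 genes, and they are shown with the bases around them. Il1a held AP-1 from -12 (minus strand, chr2:129309973-129310004). Il1rn has several start sites, with AP-1 from -141 of one (chr2:24336699-24336745) and kappaB from -51 of another (chr2:24345300-24345349), both on the plus strand. Capitals mark the match.
Il1a: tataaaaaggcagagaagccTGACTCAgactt
Il1rn, one start site: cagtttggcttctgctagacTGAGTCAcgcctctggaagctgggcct
Il1rn, another start site: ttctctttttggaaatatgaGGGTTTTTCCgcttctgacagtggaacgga

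Neither ISRE nor GAS was found in these 10 windows, and no string was found in the windows of Tnf, Il1b, Il12a and Il12b. A match describes letters in the window, not binding, and a missing match says only that these letters are not in this stretch.

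Levels are given as log2 of the deposited intensity, on which a difference of 1 is a doubling. The median intensity of an array lay between 163.5 and 178.8. IFNa replicate 4 and untreated replicate 1 had a narrower spread of values than the rest, with interquartile ranges of 2.06 and 2.18 log2 units against 2.60 to 2.96 in the other arrays. The macrophage markers Adgre1 (which encodes F4/80), Icam2, Csf1r and Itgam lay between the 96.6th and 99.7th percentile of all genes in every array. F4/80 and ICAM2 are sorting markers in the labels, so Adgre1 and Icam2 are no separate check of the cell type. Csf1r and Itgam alone lay between the 98.7th and 99.7th percentile. The summed intensity of 9 mast cell markers was 3363 in IFNa replicate 4 and 1378 to 1779 in the others. In that array 3 of the 9 markers were highest, Hdc among them. Hdc read 2701 there and 792 to 1235 in the others, and made up most of the 3363. Cpa3, Kit, Mcpt4, Tpsb2, Cma1 and Gata2 were each highest in an untreated array. IFNa replicate 4 also had the lowest sum of 13 large peritoneal macrophage markers, 66742 against 70109 to 81613 in the others. The sum of 9 B cell markers was 2886 in IFNa replicate 2 and 979 to 1509 in the others, with 7 of the 9 highest there. The sum of 13 neutrophil and eosinophil markers was 3567 to 3715 in untreated arrays and 2748 to 3094 in treated arrays, with 5 of the 13 below the lower quartile of every array. Such a sum follows its brightest genes. Csf3r, with an untreated mean of 11.34, was -0.51 after IFNa and -0.39 after IFNg (adjusted p = 0.0825 and 0.527 by limma). Ly6g went the other way after IFNa, 0.49 (adjusted p = 0.147). The median changes of the 13 were -0.027 and -0.14, against -0.017 and -0.057 over all genes. No gene of these 3 lists, nor of the T and NK cell or mesothelial and stromal lists, was called in any comparison, and the part of such cells in the results below was not tested. Of the large peritoneal macrophage markers Gata6 was the one called, -1.05 after IFNa (adjusted p = 0.00997) and -1.16 after IFNg (0.0242), and of 11 markers of small macrophages, monocytes and dendritic cells it was Plac8, 1.00 after IFNa (0.0156). The IFNa calls were lost without untreated replicate 2 (0.0641 and 0.0851), that of Plac8 also without IFNa replicate 2 (0.0521). The Gata6 call after IFNg was lost without IFNg replicate 1 (0.107), IFNg replicate 2 (0.337), untreated replicate 2 (0.114) or untreated replicate 3 (0.0601), and with only the compared groups fitted (0.0628). In such sorted bulk samples, more cells that express a gene and more RNA per cell cannot be told apart.

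Il6 encodes the acute-phase cytokine IL-6, and its RNA was higher in every IFNa array than in any other array. It read 6.03, 6.70 and 7.15 in the untreated arrays, 9.07, 8.57, 9.53 and 8.56 in the IFNa arrays, and 6.08 and 6.05 in the IFNg arrays. The IFNa values do not overlap those of either other group, while the IFNg values lie at the low end of the untreated range. Group means were 8.93 ± 0.46 (SD, n = 4) after IFNa, 6.63 ± 0.56 (SD, n = 3) untreated and 6.07 ± 0.019 (SD, n = 2) after IFNg. The rise over untreated was 2.31 ± 0.29 (standard error) on the log2 scale, a 4.95-fold change (95% interval 3.14 to 7.80), with an adjusted p of 0.0018 by limma with Benjamini-Hochberg adjustment over 19752 genes. Of all genes, 1.79% were called higher and 0.856% lower by the same rule, a call being an adjusted p under 0.05. Before adjustment its p ranked 188th among all genes. On the linear scale the 4 IFNa arrays read 537, 381, 740.1 and 378, and the untreated arrays 65.4, 104 and 142. Both IFNg arrays and untreated replicate 1 lay below the lower quartile of their array for this gene. The call held in all 21 alternative settings, with changes from 2.01 to 2.75 and adjusted p up to 0.0134. Not all of these are separate, as the omission of either IFNg array gives the same fit as the compared groups alone.

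**Figure D1:**
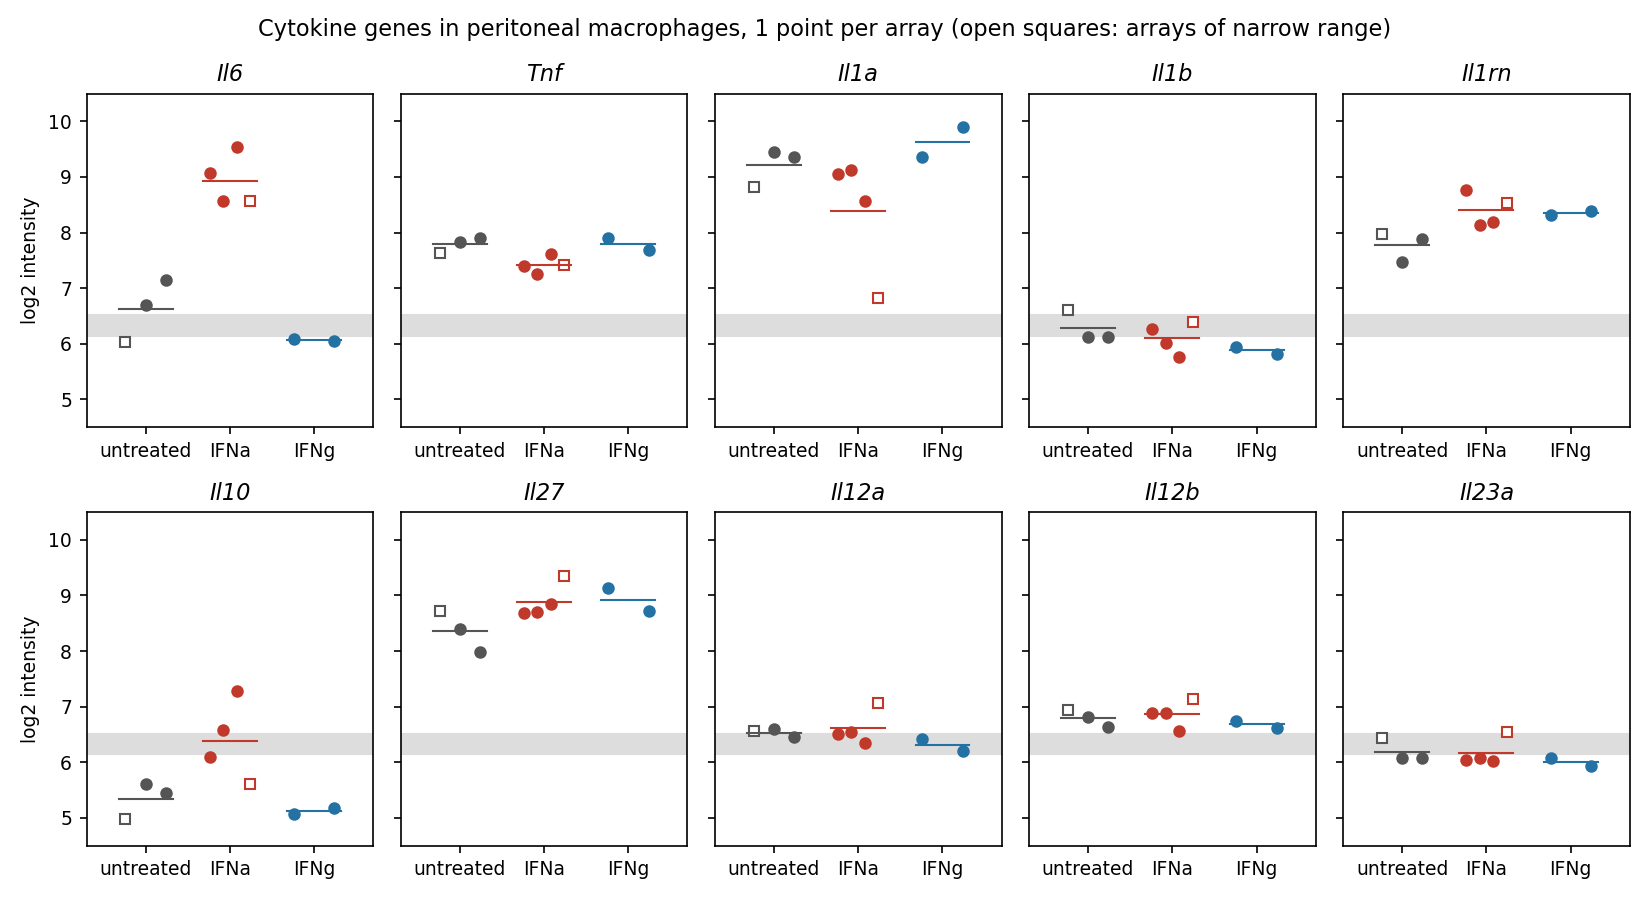
Log2 intensity of the 10 cytokine genes (vertical axis) in each of the 9 arrays, grouped as untreated (n = 3), IFNa (n = 4) and IFNg (n = 2), with points for arrays (open squares for the pair of narrow range), a line at each group mean and a grey band for the span of the arrays' lower quartiles, 6.14 to 6.51. The Il6 points of IFNa, from 8.56 to 9.53, all lie above those of the other groups.

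Il10 encodes an inhibitory cytokine that limits macrophage activation. It read 4.98, 5.60 and 5.44 untreated, 6.10, 6.58, 7.28 and 5.60 after IFNa, and 5.07 and 5.18 after IFNg. The 3 highest values are IFNa arrays, but IFNa replicate 4 and untreated replicate 2 hold the same deposited value of 48.62, so the groups overlap by that tie. In 7 of the 9 arrays Il10 lay below the array's lower quartile. The IFNa difference was 1.05 ± 0.34 on the log2 scale (95% interval 0.29 to 1.81), with an unadjusted p of 0.0119 and an adjusted p of 0.195, so it did not pass. Without IFNa replicate 4, the array with narrow range and high Hdc, the difference was 1.31 with an adjusted p of 0.0463. Without both arrays of narrow range it was 1.13 with an adjusted p of 0.0668.

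None of the 3 IL-1 genes passed the test by limma in any comparison. Il1rn encodes the receptor antagonist that blocks IL-1 signalling. It read 7.98, 7.46 and 7.89 untreated, 8.76, 8.14, 8.19 and 8.53 after IFNa, and 8.31 and 8.39 after IFNg. All 6 treated arrays lay above all 3 untreated arrays. Over all genes, 3.68% had every IFNa array above every untreated one, and 12.3% every IFNg array. The share of genes with both patterns was not counted. Its differences were 0.63 ± 0.18 after IFNa (adjusted p = 0.141) and 0.57 ± 0.22 after IFNg (adjusted p = 0.506), so neither passed the adjustment by limma.

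Il1a encodes IL-1α, which acts as an alarm signal when cells are damaged. Its values were 8.82, 9.45 and 9.36 untreated, 9.04, 9.12, 8.58 and 6.81 after IFNa, and 9.37 and 9.90 after IFNg. IFNa replicate 4 stood apart at the low end. IFNa replicates 1 and 2, at 9.04 and 9.12, lay within the untreated range, and replicate 3, at 8.58, lay below it. The IFNa difference was -0.82 ± 0.49 (adjusted p = 0.642), and it was -0.30 without IFNa replicate 4. Il1b encodes IL-1β, which is released after cleavage by caspase-1. It read 6.61, 6.12 and 6.12 untreated, 6.27, 6.01, 5.76 and 6.40 after IFNa, and 5.94 and 5.82 after IFNg, and it lay below the lower quartile in 7 of 9 arrays. Differences of -0.17 ± 0.18 after IFNa and -0.40 ± 0.22 after IFNg did not pass (adjusted p = 0.872 and 0.689 by limma).

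Tnf encodes the tumour necrosis factor TNF. It read 7.64, 7.84 and 7.91 untreated, 7.39, 7.26, 7.62 and 7.42 after IFNa, and 7.90 and 7.68 after IFNg. The IFNa arrays lay just below all others, the nearest pair being 7.62 and 7.64. The difference after IFNa was -0.37 ± 0.13 (95% interval -0.66 to -0.084), with an unadjusted p of 0.0166 and an adjusted p of 0.233. After IFNg the difference was -0.0040 ± 0.15, with an interval of -0.35 to 0.34 and a sign that turned under median centring.

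None of the 4 IL-12 family subunits passed the test by limma in any comparison. Il27, the p28 subunit of IL-27, read 8.72, 8.40 and 7.98 untreated, 8.68, 8.70, 8.84 and 9.34 after IFNa, and 9.13 and 8.72 after IFNg. The highest untreated array lies at the same level as the lowest treated arrays. Differences were 0.52 ± 0.22 after IFNa (95% interval 0.031 to 1.01, adjusted p = 0.374) and 0.56 ± 0.26 after IFNg (95% interval -0.028 to 1.15, adjusted p = 0.638). Both intervals are for single genes and are not adjusted.

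Il12a encodes the p35 subunit and Il12b the p40 subunit. Il12a read 6.55, 6.59 and 6.45 untreated, 6.51, 6.55, 6.34 and 7.06 after IFNa, and 6.42 and 6.21 after IFNg. Il12b read 6.94, 6.81 and 6.63 untreated, 6.88, 6.89, 6.55 and 7.14 after IFNa, and 6.75 and 6.62 after IFNg. The groups overlap for both, except that both IFNg arrays of Il12a lie just below the untreated ones. IFNa differences of 0.082 ± 0.17 for Il12a and 0.073 ± 0.15 for Il12b leave room for changes from -0.29 to 0.46 and from -0.26 to 0.41. The signs of both turned under several alternatives.

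Il23a encodes the p19 subunit of IL-23. It read 6.44, 6.07 and 6.07 untreated, 6.03, 6.07, 6.02 and 6.55 after IFNa, and 6.07 and 5.94 after IFNg. The same deposited value of 67.2 stands in 4 arrays, and 8 of 9 arrays lie below the lower quartile. Its differences were -0.025 ± 0.16 after IFNa, with a sign that turned under median centring, and -0.19 ± 0.19 after IFNg. Il12a, Il12b, Il23a and Il27 each had their highest value in IFNa replicate 4, an array of narrow range and high Hdc, and the part of either in these readings was not tested.

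Of the 10 members, 1 was called after IFNa (Il6), beside 2.65% of all genes called in either direction. Before adjustment 5 had a p under 0.05 by limma (Il6, Tnf, Il1rn, Il10 and Il27). The largest of these, 0.0393 for Il27, ranked 2075th, so at least 2075 of the 19752 genes lay under that cut. The median change of the members was 0.078, against -0.017 over all genes. Il6 and Il1rn had every IFNa array above every untreated one, a pattern of 3.68% of all genes, and Tnf had every IFNa array below, a pattern of 6.75%.

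**Figure D2:**
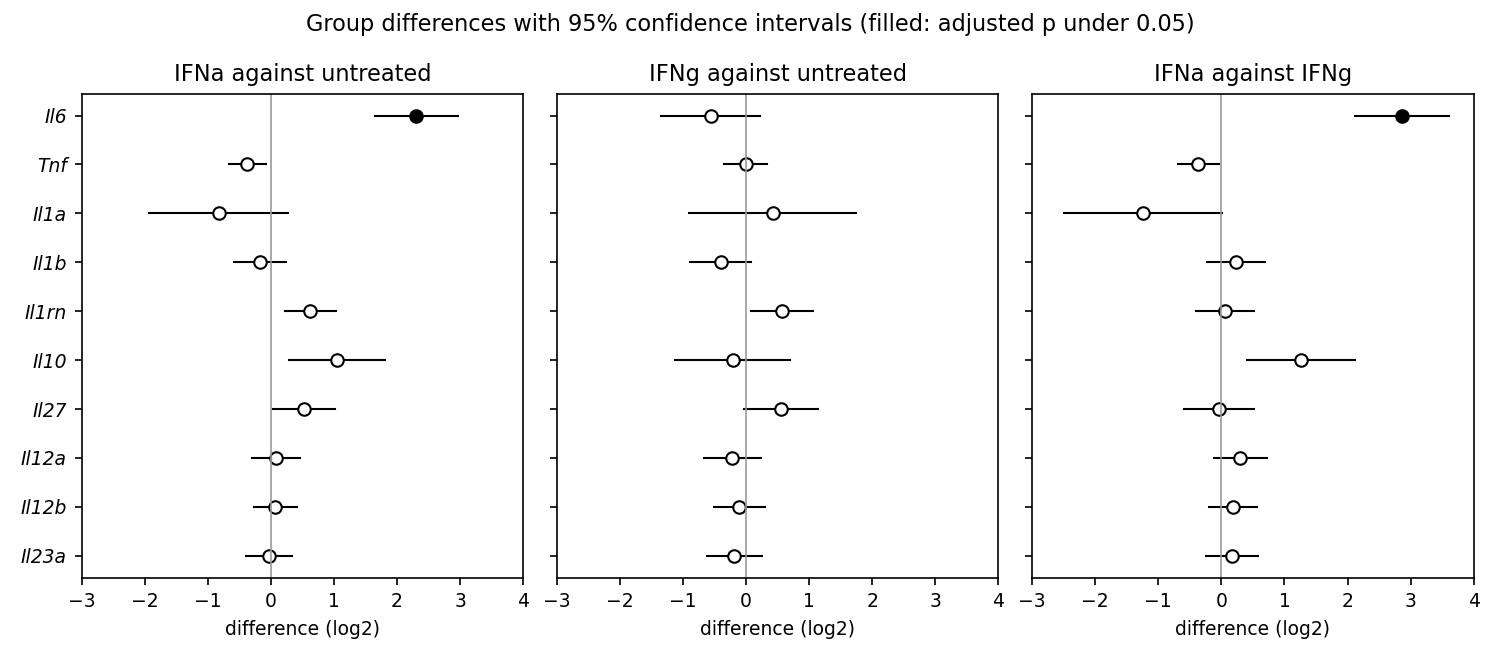
Log2 change of each cytokine gene in the 3 comparisons (horizontal axis) with 95% intervals from the limma fit; filled points have an adjusted p under 0.05. Il6 stands at 2.31 for IFNa against untreated and 2.87 for IFNa against IFNg, and the intervals of the other genes are unadjusted.

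After IFNg, none of the 10 members passed by limma, beside 1.35% of all genes called (1.24% higher and 0.111% lower). Before adjustment 1 (Il1rn) had a p under 0.05. It ranked 1062nd, so at least 1062 of the 19752 genes lay under that cut. Il6 was -0.56 ± 0.35 (95% interval -1.34 to 0.23), Il10 -0.21 ± 0.40 and Il1a 0.42 ± 0.59. The median of the members was -0.15, against -0.057 over all genes. Both IFNg arrays of Il1rn lay above all untreated arrays, as for 12.3% of all genes, and those of Il1b and Il12a lay below, as for 15.5%. With 2 IFNg arrays the intervals are wide, and a missed threshold does not show that a level stayed the same.

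Between the interferons, whose doses and types both differed (10000 U and 8000 U), Il6 was higher after IFNa by 2.87 ± 0.33 on the log2 scale, 7.29-fold (95% interval 4.35 to 12.2), with an adjusted p of 0.00345. It was the member called, 1 of 10, beside 0.977% of all genes (0.44% higher and 0.537% lower after IFNa). Without IFNg replicate 1 or replicate 2, which leaves 1 array of that group, the adjusted p was 0.0611 or 0.0590 with changes of 2.88 and 2.85. Il10 was 1.26 ± 0.38 higher after IFNa (adjusted p = 0.305), with all IFNa arrays above both IFNg arrays, and 1.52 (adjusted p = 0.034) without both arrays of narrow range. Il1a was -1.24 ± 0.56 (adjusted p = 0.709) and Tnf -0.37 ± 0.15 (adjusted p = 0.59) with IFNa arrays all lower. Arrays all above or all below were found for 12.8% and 15.6% of all genes. The order of group levels was IFNa, untreated, IFNg for Il6 and Il10, of which the lower pair did not differ beyond its spread. It was untreated, IFNg, IFNa for Tnf and IFNg, untreated, IFNa for Il1a. Il1b and Il23a ran untreated, IFNa, IFNg, while Il12a and Il12b ran IFNa, untreated, IFNg. Il1rn ran IFNa, IFNg, untreated and Il27 ran IFNg, IFNa, untreated. As fitted over all 9 arrays, no member other than Il6 had a difference between groups that passed. Against untreated, Il10 passed by limma without IFNa replicate 4 (adjusted p = 0.0463) but not without both arrays of narrow range (0.0668). Against IFNg, Il10 passed without both (0.034) but not without IFNa replicate 4 alone. The 3 comparisons share arrays, so they are not independent of one another.

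Other genes of the cytokine pathways were counted in lists chosen by function, 111 measured of 120 listed, with the members themselves left out. The lists were chosen with earlier results of these data known, so their counts are no test against the share over all genes. After IFNa 14 rose and 2 fell, after IFNg 17 rose and none fell, and between the interferons none was higher and 6 were lower after IFNa. Over all genes 2.65%, 1.35% and 0.977% were called in these comparisons, with median changes of -0.017, -0.057 and 0.030. The counts of falls and of differences between the interferons moved with the processing. Quantile normalization gave 14 higher and 8 lower after IFNa, 17 and 2 after IFNg, and 4 and 5 between the interferons. Without both arrays of narrow range there were 15 and 10, 23 and 7, and 8 and 15. Leaving out single arrays gave 13 to 15 higher and 0 to 3 lower after IFNa, with 0 lower without untreated replicate 2. After IFNg it gave 7 to 21 higher, with 9 and 7 without IFNg replicates 1 and 2. Between the interferons it gave 0 to 2 higher, 2 of them without untreated replicate 1, and 1 to 11 lower, with 2 and 1 without IFNg replicates 1 and 2, 2 without IFNa replicate 2 or 3, 11 without IFNa replicate 4 and 4 without untreated replicate 2 or 3. With only the compared groups fitted, 11 were higher after IFNg, and the IFNg calls of Tnfrsf1a (adjusted p = 0.074), Il10ra (0.112), Casp1 (0.158), Casp4 (0.156), Atf3 (0.101), Ahr (0.0547) and Il15 (0.127), described below, were lost.

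Receptors of the members gave 1 of 12 called after IFNa and 2 of 12 after IFNg, beside 2.65% and 1.35% of all genes. The list medians were 0.061 and -0.035, against -0.017 and -0.057 over all genes. Il10ra, the ligand-binding chain of the IL-10 receptor, rose by 1.02 ± 0.17 after IFNa (adjusted p = 0.0102) and by 1.20 ± 0.20 after IFNg (adjusted p = 0.0186). Tnfrsf1a, the main TNF receptor, rose by 1.16 ± 0.20 after IFNg (adjusted p = 0.0224) and was 0.30 ± 0.17 after IFNa (adjusted p = 0.615). Both IFNg calls were lost without either IFNg array (adjusted p of 0.155 and 0.232 for Il10ra, 0.288 and 0.181 for Tnfrsf1a), and without untreated replicate 2 (0.0536 and 0.0841). That of Tnfrsf1a was also lost without untreated replicate 1 (0.0561).

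Genes of cytokine processing and release gave 3 of 15 called after IFNa and 2 of 15 after IFNg, beside 2.65% and 1.35% of all genes. The list medians were 0.17 and 0.26, against -0.017 and -0.057 over all genes. Casp1, the protease that matures IL-1β and IL-18, rose by 1.31 ± 0.20 after IFNa (adjusted p = 0.00602) and by 1.34 ± 0.24 after IFNg (adjusted p = 0.0247). Casp4, the mouse caspase-11 that senses intracellular lipopolysaccharide, rose by 1.62 ± 0.27 (adjusted p = 0.0102) and 1.87 ± 0.32 (adjusted p = 0.02). Aim2, a sensor of cytosolic DNA, rose by 1.13 ± 0.17 after IFNa (adjusted p = 0.00595) and was 0.26 ± 0.21 after IFNg. The IFNg call of Casp4 was lost without IFNg replicate 1 (adjusted p = 0.217) or replicate 2 (0.199). That of Casp1 was lost without the same arrays (0.353 and 0.126), untreated replicate 2 (0.111), IFNa replicate 1 (0.0532) or IFNa replicate 2 (0.0517). Nlrp1b, an inflammasome sensor, was lower after IFNa than after IFNg by -0.97 ± 0.18 (adjusted p = 0.0326), a call lost without either IFNg array, IFNa replicate 2 or 3, or untreated replicate 2 or 3, with adjusted p from 0.0562 (untreated replicate 3) to 0.467 (IFNg replicate 1). It was also lost under quantile normalization (0.0836) and with only the compared groups fitted (0.0925).

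**Figure D3:**
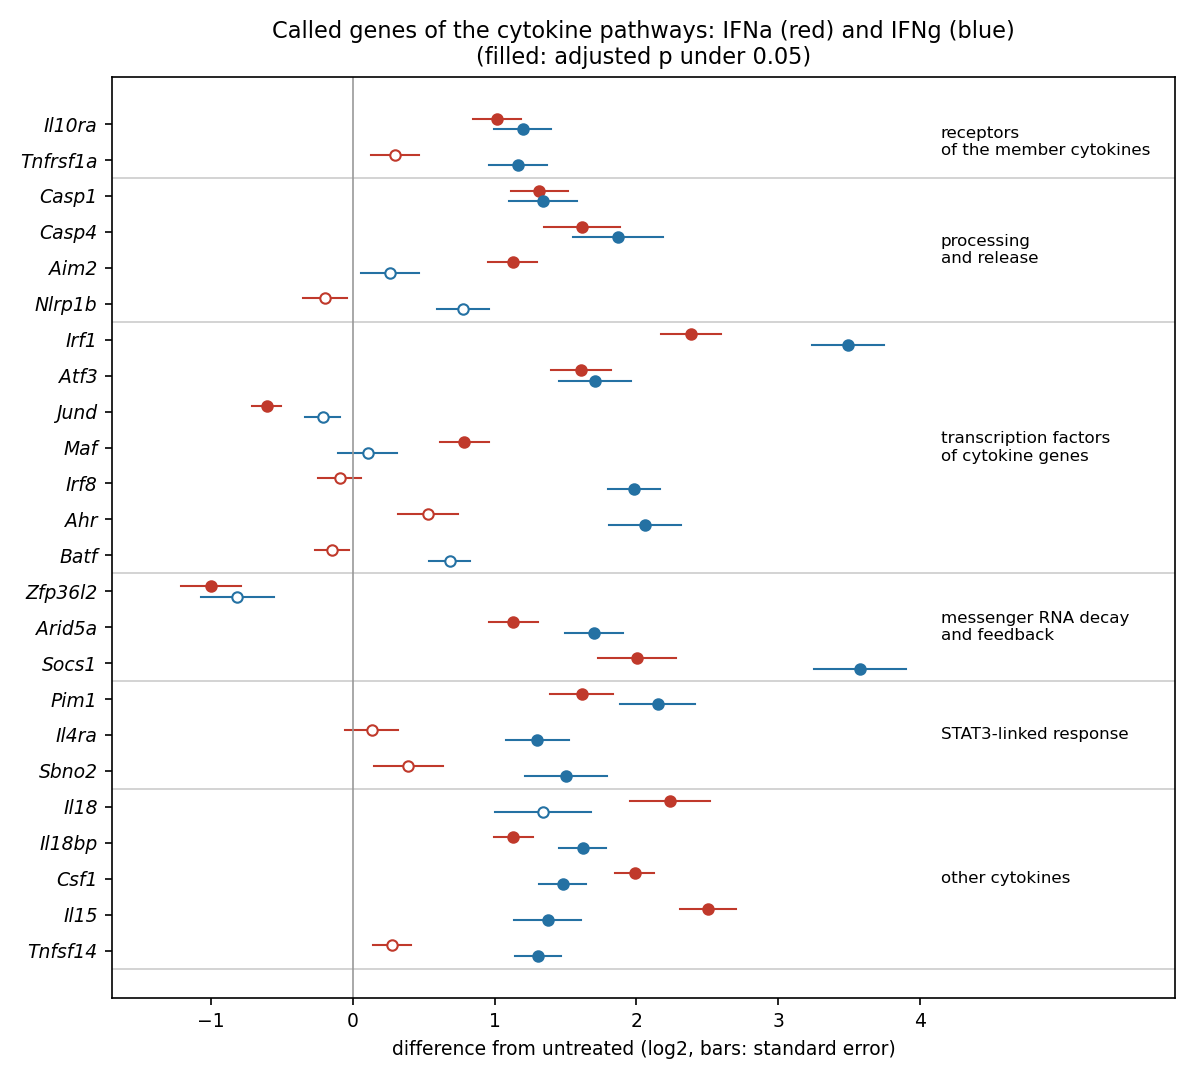
Log2 difference from untreated (horizontal axis) after IFNa (red) and IFNg (blue) of the pathway genes called in any of the 3 comparisons, grouped by list, with bars for the standard error and filled points for an adjusted p under 0.05. Irf1 and Socs1 stand at 3.50 and 3.58 after IFNg, and Il15 and Il18 at 2.51 and 2.24 after IFNa.

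Transcription factors of cytokine genes gave 3 higher and 1 lower of 23 after IFNa, and 4 higher after IFNg. Over all genes 2.65% and 1.35% were called. The list medians were -0.19 and 0.049, against -0.017 and -0.057 over all genes. Irf1, a factor that activates IL-12 and IL-27 subunit genes, rose by 2.39 ± 0.21 after IFNa (adjusted p = 0.000165) and by 3.50 ± 0.26 after IFNg (adjusted p = 0.000125), while a second probe set of Irf1 gave 0.51 after IFNa, which did not pass (adjusted p = 0.208), and 1.36 after IFNg (adjusted p = 0.00901). Atf3, a factor that represses Il6 transcription, rose by 1.61 ± 0.21 after IFNa and by 1.71 ± 0.25 after IFNg; the second call was lost without IFNg replicate 1 or 2 (adjusted p = 0.14 and 0.0994). Maf, which activates Il10, rose by 0.79 ± 0.17 after IFNa (adjusted p = 0.0446), and 8 of the 9 single-array omissions, all but that of IFNa replicate 4, ended the call, with adjusted p up to 0.113 without untreated replicate 1. The Maf call was also lost under quantile normalization (0.0919), with an intensity trend in the variance (0.0638) and with only the compared groups fitted (0.087). The omission of either IFNg array gives that same fit of the compared groups, so these losses are not separate. Jund, an AP-1 member, fell by 0.61 on the log2 scale after IFNa (adjusted p = 0.011), and the call was lost without untreated replicate 2 (0.0724). Irf8 and Ahr rose by 1.98 ± 0.18 and 2.06 ± 0.25 after IFNg. Both were lower after IFNa than after IFNg, by -2.08 ± 0.17 and -1.53 ± 0.24. The Ahr difference was lost without IFNg replicate 2, IFNa replicate 2 or IFNa replicate 3 (adjusted p = 0.207, 0.0526 and 0.0538), and with only the compared groups fitted (0.0581). Batf differed likewise by -0.83 ± 0.14, lost without either IFNg array (adjusted p = 0.25 and 0.304), IFNa replicate 2 (0.0604) or IFNa replicate 3 (0.0621).

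Genes of messenger RNA decay and feedback gave 2 higher and 1 lower of 20 after IFNa, and 2 higher after IFNg. Over all genes 2.65% and 1.35% were called. The list medians were 0.046 and 0.034, against -0.017 and -0.057 over all genes. Arid5a, whose protein stabilises Il6 messenger RNA, rose by 1.13 ± 0.17 after IFNa (adjusted p = 0.00595) and by 1.70 ± 0.21 after IFNg (adjusted p = 0.00316). Socs1, an inhibitor of JAK kinases, rose by 2.00 ± 0.27 and 3.58 ± 0.33. Zfp36l2, an RNA-destabilising protein of the tristetraprolin family, fell by 1.00 on the log2 scale after IFNa (adjusted p = 0.0403). That call was lost in 7 of the 9 single-array omissions, all but those of the IFNg arrays, with adjusted p up to 0.145 without untreated replicate 2, under median centring (0.0672) and without both arrays of narrow range (0.0538). Socs3, which restrains IL-6 signalling, was 1.76 after IFNg with an adjusted p of 0.0664, and its second probe set gave 1.28 with 0.0309.

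STAT3-linked genes, which lie downstream of IL-6 and IL-10 receptors but also answer to other cytokines, had list medians of 0.43 after IFNa and 0.84 after IFNg, with 1 and 3 of 12 called. Pim1, a kinase, rose by 1.61 ± 0.22 after IFNa (adjusted p = 0.0031) and by 2.15 ± 0.27 after IFNg (adjusted p = 0.00352); the IFNg call was lost without IFNg replicate 2 (0.0619). Il4ra and Sbno2 rose by 1.30 ± 0.22 and 1.51 ± 0.29 after IFNg. The Il4ra call was lost without IFNg replicate 1 (0.15), IFNg replicate 2 (0.244), untreated replicate 1 (0.0684) or untreated replicate 2 (0.0841). The Sbno2 call was lost in 7 of the 9 single-array omissions, all but those of IFNa replicates 2 and 4, with adjusted p up to 0.36 without IFNg replicate 2. Both calls were also lost under quantile normalization, and that of Sbno2 under median centring. Il4ra was lower after IFNa than after IFNg by -1.17 ± 0.21, a call also lost in 7 of 9 (all but those of IFNa replicate 4 and untreated replicate 1), with adjusted p up to 0.467 without IFNg replicate 2, under quantile normalization (0.126) and with only the compared groups fitted (0.11). The list medians stand beside -0.017 and -0.057 over all genes, and the counts of 1 and 3 of 12 beside 2.65% and 1.35% of all genes.

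Among 33 other cytokines, 4 were called higher after each interferon, beside 2.65% and 1.35% of all genes called. The list medians were 0.018 and -0.12, against -0.017 and -0.057 over all genes. Il15, which supports natural killer and memory T cells, rose by 2.51 ± 0.20 after IFNa and by 1.38 ± 0.24 after IFNg. Il18, processed by caspase-1 like IL-1β, rose by 2.24 ± 0.28 after IFNa (adjusted p = 0.00172) and was 1.34 ± 0.34 after IFNg (adjusted p = 0.134). Il18bp, the secreted inhibitor of IL-18, rose by 1.13 ± 0.14 and 1.62 ± 0.16, and Csf1, the macrophage growth factor, by 1.99 ± 0.14 and 1.48 ± 0.17. Tnfsf14 rose by 1.31 ± 0.16 after IFNg and was lower after IFNa than after IFNg by -1.03 ± 0.15. The IFNg call of Il15 was lost without IFNg replicate 1 or 2 (adjusted p = 0.202 and 0.223). That of Tnfsf14 was lost without IFNg replicate 2 (0.0687), and its difference between the interferons without IFNg replicate 1 or 2 (0.0649 and 0.268).

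Symbols that start with Gm and a digit or with Olfr, or that end in Rik, were left out of a ranking of genes by likeness to Il6. Of the rest, those whose pattern over the 9 arrays was most like that of Il6 were Urgcp (Pearson r = 0.963), Frmd4a (0.963), Arhgap17 (0.962), Ifit1bl2 (0.957) and Evl (0.955). These correlations share the 9 arrays and the group difference, and they carry no test. After IFNa, Frmd4a rose by 1.05 ± 0.14 and Ifit1bl2, an interferon-induced gene, by 1.58 ± 0.20, while Arhgap17 was 0.47 with an adjusted p of 0.0823 by limma. The genes were picked for likeness to Il6 in these same arrays, so their higher levels after IFNa are no separate result.

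**Figure D4:**
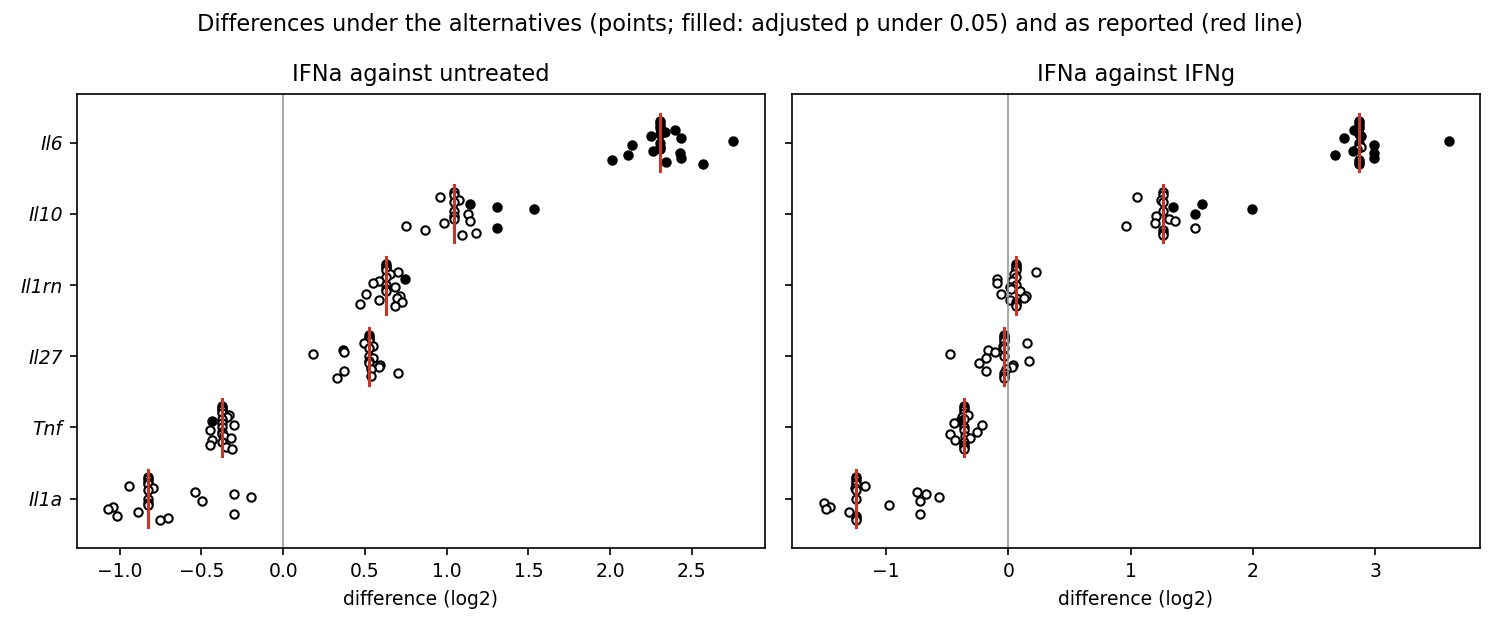
Log2 difference (horizontal axis) of Il6, Il10, Il1rn, Il27, Tnf and Il1a for IFNa against untreated and IFNa against IFNg, as reported (red line) and in each alternative setting (points, filled at an adjusted p under 0.05). Against untreated, Il6 stays between 2.01 and 2.75, and Il10 ranges from 0.75 to 1.54.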

How the data were processed

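Per the submitters' processing notes, the authors summarised the arrays with Affymetrix Power Tools and RMA, with no version given; which arrays were normalized together is not given in the sources used here. The deposited table gives linear RMA intensity per probe set, of which log2 was taken. Of 24922 probe sets, 21425 carried 1 gene symbol in the platform annotation, 1399 several and 2098 none. A gene was represented by its probe set with only that symbol and the highest mean, giving 19752 genes; each of the 10 members has 1 probe set. The RefSeq table of GRCm38.p6 held the Entrez identifiers of 19677 genes and was used for names.

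With limma 3.58.1 (R 4.3.3), 3 group means were fitted over the 9 arrays together (6 residual and 3.62 prior degrees of freedom), two-sided, with Benjamini-Hochberg adjustment over all genes and calls at adjusted p under 0.05. Tables and figures used Python 3.11.15, pandas 2.3.3, NumPy 2.4.6 and Matplotlib 3.10.9. The model was tested on simulated data. Arrays give no depth, and their number limits the precision.

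The members and lists were chosen with earlier results of these data known. Named genes were the members, up to 3 genes with the smallest p and any called gene per list and comparison (of which those called, and Socs3, are described), and the 5 genes most like Il6. Alternatives were other variance models, filters on dim genes, quantile normalization, median centring, fits of the compared groups alone, array weights, replicate blocks, every probe set and omission of arrays.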

Additional observations from a re-analysis of the deposited data

Results flagged for a closer look

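Il23a in IFNa replicate 4 read 6.55 on the log2 scale, apart from the other 3 IFNa arrays at 6.02 to 6.07. The gap to the nearest array was 0.90 of the range of the group, above the critical value for 4 arrays. It was 1 of 41 genes examined in this way, and chance alone marks about 1 in 20 such groups. The array is one of the pair with a narrow range of values, and its part in this reading was not tested.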

How the results depend on the processing

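The count of members called for IFNa against untreated (1) was 5 with array weights, 2 with a replicate block by title number and 2 with one by description number, and 1 to 2 when each array was left out. For IFNg against untreated (0) it was 2 with array weights. For IFNa against IFNg (1) it was 3 with array weights, 2 with either replicate block, 2 without both arrays of narrow range, and 0 to 1 when each array was left out. Il10 was the second gene with the blocks: 1.31 (adjusted p = 0.0125) by title and 1.54 (0.00625) by description for IFNa against untreated. IFNa replicate 4 shares its number with no other array under either numbering, so either block takes it out of the comparison. The blocks are therefore not separate from the omission of that array, which also gave 1.31 for Il10. The planned estimate of array weights did not converge, so weights gene by gene were used, chosen after seeing the data; they gave untreated replicate 2 a weight of 5.07 and IFNa replicate 4 one of 0.121, and called 5573 genes for IFNa against untreated. The members called were Il6, Tnf, Il1rn, Il10 and Il27 in that comparison, Il1rn and Il27 for IFNg, and Il6, Il10 and Tnf between the interferons. Deviations from the group means correlated from -0.21 to 0.60 over 7 pairs by title and from -0.44 to 0.11 over 6 by description. Of these pairs, 3 and 1 were over 0.1. With 2 to 4 arrays in a group the deviations are tied to one another, so whether the numbers pair the arrays cannot be decided this way.

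Signs of small changes turned. For Il12a after IFNa (0.082 as reported), values were -0.094 with array weights, -0.066 and -0.14 with the replicate blocks by title and description, -0.055 without both narrow arrays and -0.066 to 0.17 leaving out each array. For Il12b they were -0.022, -0.020 and -0.14 with weights and the 2 blocks, and -0.020 to 0.18. Il23a was 0.0050 under median centring and -0.15 to 0.097 leaving out each array. Tnf after IFNg was 0.037 under median centring, 0.074 with the block by title and -0.12 to 0.11. Between the interferons, the block by description gave Il1b -0.18, Il1rn -0.095, Il12b -0.14 and Il23a -0.14; Il1rn was -0.097 with array weights and -0.060 to 0.15 leaving out each array; Il27 was 0.15 under quantile normalization and -0.24 to 0.17. The cause was not tested. Filters on dim genes left out Il1b, Il10, Il12a and Il23a, and Il12b at 50%, so these have no value there. Of 42 named calls, 20 held in every setting run. The replicate block by description also ended the calls of Casp4 after IFNg, Plac8 after IFNa, and Batf, Nlrp1b and Tnfsf14 between the interferons. That by title also ended the calls of Ahr between the interferons and Maf after IFNa. Either block ended that of Zfp36l2 after IFNa.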
